A study of Mus musculus with 2 samples.

Results

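The cells described here were barcodes of mouse dorsal skin picked from single-cell RNA-seq libraries by their MHC class II transcripts, a rule meant to take dendritic and Langerhans cells. Some of them carried no marker of either kind or much keratin, as given below, so they are called class II cells. The cells were chosen by measured values of these same libraries, so what chose them is described and not tested. A barcode was taken when it had 200 to 8000 detected genes, at most 10% of its transcripts from mitochondrial genes, and at least 20 of 10000 transcripts from Cd74, H2-Aa, H2-Ab1 and H2-Eb1, with at least 3 of these 4 genes detected. It also had to carry a transcript of Ptprc, Ctss, Tyrobp or Cd207, genes of leukocytes, myeloid cells and Langerhans cells, and fewer than 10 of 10000 transcripts from C1qa, C1qb and C1qc, the complement genes of macrophages. Transcripts were counted as unique molecular identifiers (UMIs). The rule found 180 class II cells among 62289 barcodes that passed the limits on genes and mitochondrial transcripts, 61 of 42244 in the Con library and 119 of 20045 in the TP library.

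Both groups were male C3H/HeN mice aged 7 weeks when dosing began and 9 weeks at harvest, with shaved backs. Con mice received vehicle, and TP mice received testosterone propionate under the skin at 0.5 mg per day, a model of androgenetic alopecia (AGA), the patterned hair loss driven by androgens. Each library held the pooled dorsal skin of 15 mice, digested with collagenase D and passed through a Percoll density gradient, and there was 1 library per group. Treatment and library therefore cannot be told apart, and all values below are given with no test between groups; intervals are exact 95% intervals that cover counting error only.

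Skin holds several kinds of cells that present antigen to CD4 T cells on MHC class II. Langerhans cells sit in the epidermis, carry the lectin langerin, encoded by Cd207, and hold on to neighbouring keratinocytes through adhesion molecules such as EpCAM and E-cadherin. Conventional dendritic cells of the dermis fall into a type 1 with Xcr1 and Clec9a and a type 2 with Cd209a, Mgl2 and Sirpa, and monocytes that enter skin through the chemokine receptor Ccr2 can also take up class II expression. The class II chains are made with the invariant chain Cd74, loaded with peptide by H2-DM in lysosomes, and switched on as a group by the regulator Ciita, which is held at their promoters by factors bound to the W, X and Y boxes.

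Since class II transcripts chose the cells, the reference promoters of H2-Aa and H2-Eb1, of the 4 genes used, are shown with the Y box letters CTGATTGG in capitals, as they stand in RefSeq on build GRCm38.p6. The windows are the 120 bases before the transcription start, at chr17:34287824-34287943 on the minus strand for H2-Aa and at chr17:34305747-34305866 on the plus strand for H2-Eb1, written 5′ to 3′ along the gene's strand.
H2-Aa: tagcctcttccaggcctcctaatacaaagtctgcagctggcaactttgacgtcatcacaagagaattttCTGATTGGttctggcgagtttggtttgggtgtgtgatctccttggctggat
H2-Eb1: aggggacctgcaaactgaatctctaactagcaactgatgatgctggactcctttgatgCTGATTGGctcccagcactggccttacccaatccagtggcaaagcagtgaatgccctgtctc
The letters lay 51 to 44 bases before the start of H2-Aa and 62 to 55 bases before that of H2-Eb1. In windows of 250 bases before the start, CTGATTGG or its reverse CCAATCAG stood in 1258 of 32851 promoter entries (3.83%). For the class II pathway, each gene was counted once and the chromosome that holds Cd74 was left out. There the letters stood in 4 of 17 genes with an entry (23.5%), namely H2-Aa, H2-Eb1, H2-Eb2 and H2-Oa. The 2 shares are thus of unlike units. These letters are those of the reference strain, and C3H mice carry another class II haplotype, so they describe the reference and not the mice sampled. Reads were also mapped to that reference, and how this bears on the class II levels, and so on which cells were taken, was not tested.

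The class II cells made up a larger share of the TP library than of the Con library. The Con share was 0.144% of kept barcodes (0.110 to 0.185). The TP share was 0.594% (0.492 to 0.710), which gives a ratio of 4.11 (2.99 to 5.69). The ratio depends on what the cells are counted against. Among barcodes with a transcript of Ptprc, the pan-leukocyte phosphatase CD45, the shares were 42 of 442 (9.50%, 6.93 to 12.6) in Con and 106 of 601 (17.6%, 14.7 to 20.9) in TP, a ratio of 1.86 (1.29 to 2.72). For comparison, macrophages, taken as barcodes with at least 10 of 10000 transcripts from C1q genes, were 36 barcodes in Con and 258 in TP, a ratio of shares of kept barcodes of 15.1 (10.6 to 22.0). T cells were 175 and 87 barcodes, a ratio of 1.05 (0.801 to 1.36).

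The class II cells were of moderate depth. They held 547 to 24562 UMIs in Con with a median of 2984, and 651 to 62229 in TP with a median of 4627, and 279060 and 1038999 UMIs in all. The libraries held 126023483 and 156376139 UMIs in kept barcodes with medians of 2162 and 5166. The Con and TP libraries shared 303 barcodes; none was a class II cell in both, and 2 of the TP class II cells had a barcode that was another cell in Con.

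The values that chose the cells are a description. The 4 class II genes together made 21.4 to 791 of 10000 transcripts in Con with a median of 129, and 20.3 to 814 in TP with a median of 171. All 4 were detected in 51 of 61 and 109 of 119 cells. Ptprc was detected in 42 Con cells (68.9%) and 106 TP cells (89.1%), the protease gene Ctss in 42 and 97, and the signalling adaptor gene Tyrobp in 40 and 94. Few cells lay near the class II limit. Between 20 and 25 class II transcripts per 10000 there were 4 Con and 2 TP cells, and just outside, between 15 and 20, there were 1 and 2 barcodes, the nearest at 17.4 and 18.9. Between 5 and 10 C1q transcripts per 10000 there were 1 Con and 5 TP cells, and just outside, between 10 and 15, there were 0 and 7 barcodes. The highest C1q levels among the cells taken were 6.56 per 10000 in Con and 9.80 in TP, and 6 Con and 42 TP barcodes met the rest of the rule but had C1q at or above the limit, the nearest of them at 10.4 in TP.

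Not every barcode taken looked like a single dendritic cell. In 19 Con cells (31.1%) and 25 TP cells (21.0%), keratinocyte and fibroblast markers made at least 100 of 10000 transcripts. These keratin-rich cells had the higher median UMIs, 7438 in Con and 24913 in TP, though 4 of the 6 Con cells under 1000 UMIs were also keratin-rich. They held 58.6% and 59.4% of all UMIs of the class II cells. Their median class II level was 59.0 and 73.7 per 10000, against 193 and 248 in the cells below the keratin limit. Artificial doublets made from the libraries lay nearest to 1 of the 19 and 14 of the 25 keratin-rich cells, and to 2 of 42 and 3 of 94 cells below the limit. Over all class II cells, keratin-rich ones included, 10 in Con and 30 in TP had at least 2 UMIs of B or T lymphocyte markers. The part of these barcodes in each result was not tested, and the main values are therefore also given for the cells below the keratin limit, of which there were 42 in Con and 94 in TP (0.0994% and 0.469% of kept barcodes, ratio 4.72, 3.25 to 6.96).

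**Figure D1:**
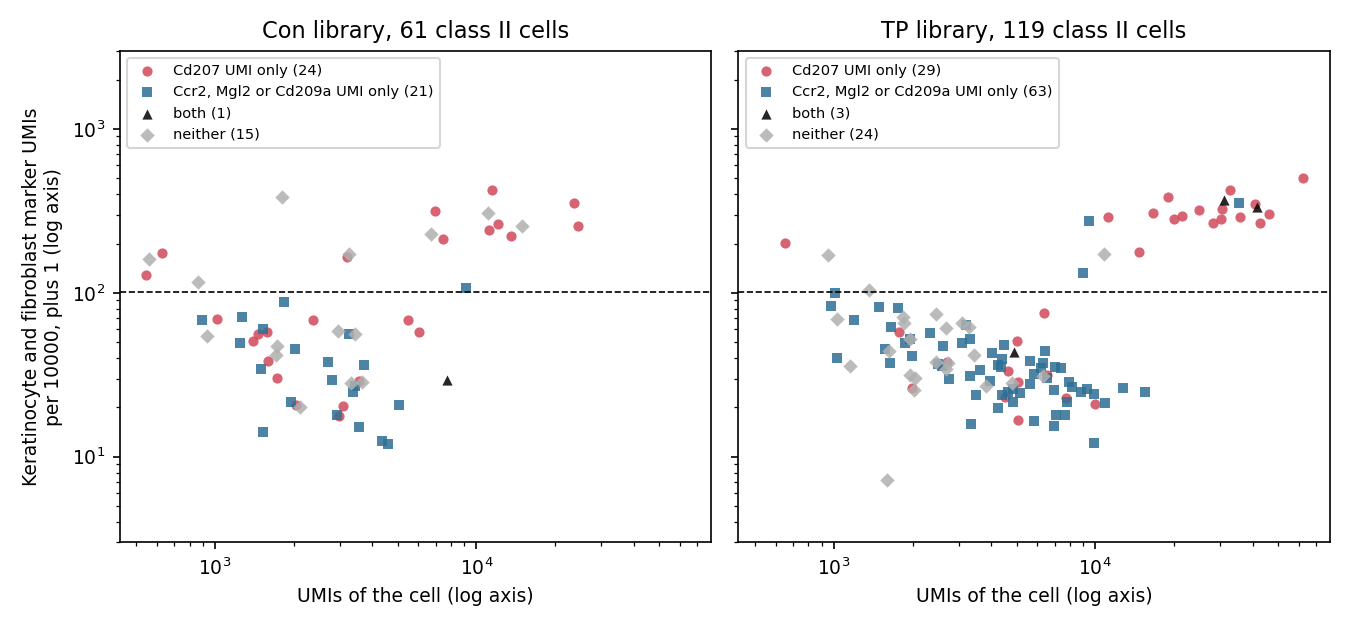
Each point is 1 class II cell of the Con library (left) or the TP library (right), placed by its UMIs (x, log axis) and by its keratinocyte and fibroblast marker UMIs per 10000 plus 1 (y, log axis), with shape and colour for the markers Cd207 and Ccr2, Mgl2 or Cd209a; the dashed line is the keratin limit of 100 per 10000. Of the 25 TP cells above the line 19 carry Cd207, and most cells with Ccr2, Mgl2 or Cd209a lie below it.

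Langerin marked a sizeable part of the class II cells in both libraries. Deeper cells show a rare transcript more often, so each cell with at least 1000 UMIs was thinned to 1000 UMIs, and the share of cells in which Cd207 would then be seen was averaged over all possible draws. It was 21.5% in Con (11.8 to 35.0, 55 cells) and 13.0% in TP (7.42 to 20.4, 116 cells), with 6 and 3 cells too shallow to enter. The intervals overlapped. Below the keratin limit the thinned shares were 24.8% (12.7 to 41.2, 40 cells) and 11.4% (6.05 to 20.2, 93 cells), and these intervals also overlapped.

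Without thinning, Cd207 was detected in 25 of 61 Con cells (41.0%, 28.6 to 54.3) and 32 of 119 TP cells (26.9%, 19.2 to 35.8). Cells with at least 2 Cd207 UMIs numbered 14 (23.0%) and 31 (26.1%), which puts the TP share above the Con share. The cells with Cd207 held 1 to 17 Cd207 UMIs in Con with a median of 2, and 1 to 24 in TP with a median of 7.5, and the TP ones were deep, with a median of 15684.5 UMIs against 3211 in Con. Of the cells with Cd207, 11 in Con and 19 in TP were keratin-rich. In cell types that should lack langerin, Cd207 was seen in 0 of 36 and 0 of 258 macrophages, which allows shares of up to 9.74% and 1.42%, and in 1 of 175 and 0 of 87 T cells. The macrophages had median depths of 2922 and 5104.5 UMIs.

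The class II cells fell into nearly separate strata by Cd207 on one side and Ccr2, Mgl2 and Cd209a on the other. Cd207 alone was detected in 24 Con cells (39.3%) and 29 TP cells (24.4%). At least one of Ccr2, Mgl2 (a galactose-binding lectin) and Cd209a (a DC-SIGN relative) without Cd207 was detected in 21 Con cells (34.4%) and 63 TP cells (52.9%). Both kinds of marker met in 1 Con and 3 TP cells. Neither was found in 15 Con cells (24.6%) and 24 TP cells (20.2%), which are therefore named by the class II rule alone and not as dendritic or Langerhans cells. Ccr2, Mgl2 and Cd209a do not by themselves name dendritic cells either. Of the 50 TP cells with Ccr2, 39 carried Lyz2, 31 Mrc1 and 24 Fn1, genes also found in monocytes or macrophages. Of the 17 Con cells with Ccr2, 9 carried Lyz2, 7 Mrc1 and 3 Fn1. As a share of kept barcodes, cells with Cd207 were 2.70 times (1.55 to 4.75) as frequent in TP as in Con, and cells without it 5.09 times (3.42 to 7.73). Below the keratin limit the ratios were 1.96 (0.847 to 4.49) for cells with Cd207 and 6.10 (3.92 to 9.73) for cells without it. These last intervals overlap, and the ratios were not compared with each other, since Cd207 was part of the rule.

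**Figure D2:**
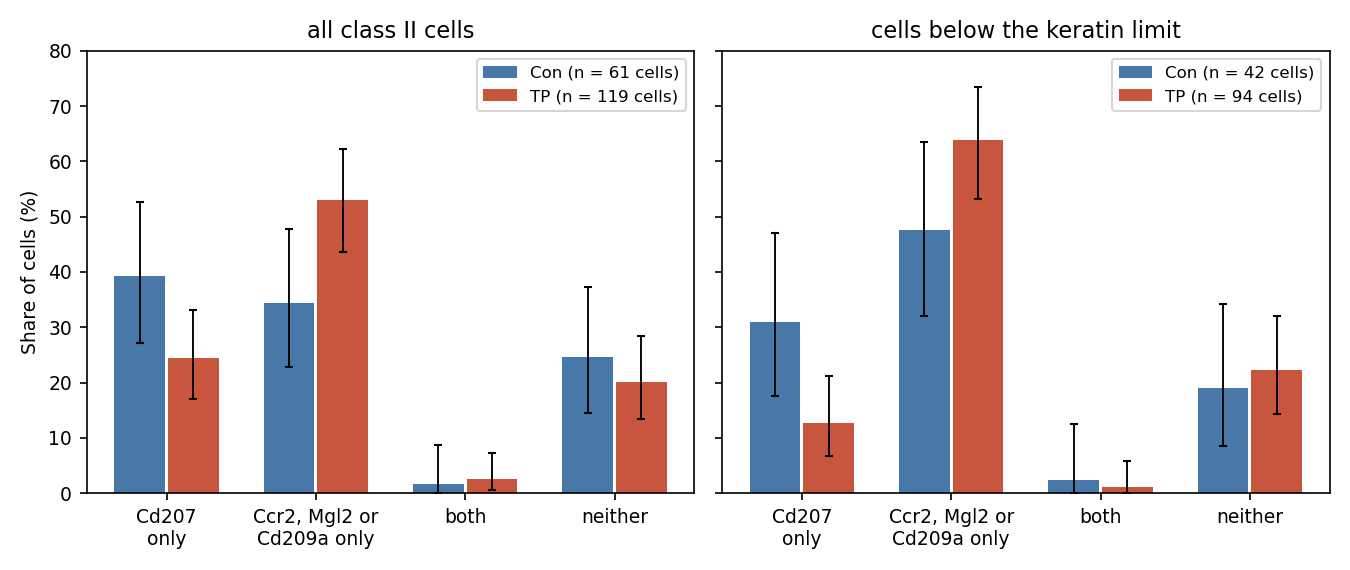
Bars give the percentage of class II cells of the Con and TP libraries with Cd207 only, with Ccr2, Mgl2 or Cd209a only, with both, or with neither, for all class II cells and for those below the keratin limit; error bars are exact 95% binomial intervals. Among all class II cells, 34.4% of Con and 52.9% of TP cells carry Ccr2, Mgl2 or Cd209a without Cd207.

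Several genes were detected more often in cells with Cd207 than in cells without it, in both libraries. Epcam, the adhesion molecule of Langerhans cells and keratinocytes, was detected in 16 of 25 Con and 30 of 32 TP cells with Cd207, against 13 of 36 and 14 of 87 without it. Mfge8, a bridging protein for uptake of dying cells, was detected in 17 of 25 and 29 of 32 cells with Cd207, against 7 of 36 and 7 of 87 without it. Ltc4s, the synthase of leukotriene C4, was detected in 13 of 25 and 26 of 32 against 4 of 36 and 2 of 87. These counts come from cells of unequal depth, the TP cells with Cd207 being the deepest.

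Ccr2 and Cd207 were never detected in the same class II cell. Ccr2 was found in 0 of 25 Con and 0 of 32 TP cells with Cd207 and in 17 of 36 and 50 of 87 cells without it. Mgl2 was found in 0 of 25 and 3 of 32 against 11 of 36 and 36 of 87. Lyz2, the lysozyme gene of monocytes and macrophages, was found in 0 of 25 and 6 of 32 against 11 of 36 and 60 of 87, and below the keratin limit in 0 of 13 TP cells with Cd207 and 56 of 81 without it.

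Summed over the cells below the keratin limit, 156 of 2201 genes with at least 50 UMIs were at least 2-fold higher in cells with Cd207 in both libraries (7.09%) and 195 were at least 2-fold lower in both (8.86%). Cd207 was itself one of the genes that could admit a barcode, so cells without it had to carry Ptprc, Ctss or Tyrobp and cells with it did not, and the split is a description. The comparison was made within each library, in counts scaled to 1000000 UMIs (CPM), with 1 UMI added before the log2 ratio. Among all class II cells the counts were 224 (4.71%) and 323 (6.79%) of 4760, and the genes that led the higher ones there were Cfap57, Tnks1bp1, Lgals4, Flg, Adh1, Sh3gl2, Fgfr3, Dsg1b, Serpinb3b and Elovl7, among them the epidermal filaggrin (Flg) and desmoglein 1 (Dsg1b) genes. The 6 lowest genes there were Mgl2, Srgn, Ccr2, Lyz2, Ifi27l2a and Mctp1.

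In the cells below the limit the leading gene was Cldn1, a tight junction claudin, with 24 UMIs in Con cells with Cd207 and 1 in those without, and 55 and 15 in TP, log2 ratios of 4.45 and 4.23. H2-M2, a nonclassical class I gene, had 35 and 2 UMIs in Con and 66 and 30 in TP, which is 832 against 27.3 CPM and 996 against 84.5 CPM. Hpgds, the hematopoietic synthase of prostaglandin D2, had 43 and 7 UMIs in Con and 79 and 16 in TP, log2 ratios of 3.26 and 4.66. These genes were higher in the cells with Cd207 in both libraries.

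Ptgs1, which encodes the cyclooxygenase COX-1, had log2 ratios of 2.97 and 3.94, and Tnfaip2, an inducible gene first found through tumour necrosis factor, 3.17 and 3.70. The list by size was completed by Atp8b1, Rasa2, Prkcb, N4bp1 and Adipor2. Of the marker genes fixed for Langerhans cells, Epcam had log2 ratios of 1.68 and 5.10 and Mfge8 of 1.95 and 5.45. Cdh1, which encodes E-cadherin, had 1.46 and 2.26. In Con it rested on 10 and 6 UMIs, a ratio of 2.91 (0.958 to 9.74) whose interval includes 1. Keratinocytes held 284 and 313 CPM of Cdh1, against 238 and 241 CPM in the cells with Cd207. Cd24a, a surface glycoprotein gene of the same list, did not go with Cd207, with -0.04 and 0.30, and -0.37 and -0.57 over all class II cells. Il1r2, the decoy receptor of interleukin 1, was 4.59 times (2.98 to 7.25) higher in Con and 9.67 times (7.34 to 12.8) higher in TP. Among regulators and receptors with a known part in Langerhans cell biology, Runx3 had log2 ratios of 2.52 and 2.21, Ahr, the aryl hydrocarbon receptor, 2.73 and 1.79, and Csf1r, the receptor of interleukin 34 and CSF1, 2.80 and 2.11. Other factors of the same transcription factor list were not 2-fold higher with Cd207 in both libraries. Id2 had log2 ratios of 1.31 and 0.10, Spi1 of -0.55 and -0.19 and Irf8 of -1.66 and -0.88.

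In the other direction, Ccr2 had 0 UMIs in cells with Cd207 and 39 in those without in Con, and 0 and 159 in TP. Mgl2 had 0 and 58 in Con and 2 and 297 in TP, and Srgn, the granule proteoglycan serglycin, 0 and 53 and 2 and 319. Lyz2 had 0 and 29 UMIs in Con and 0 and 1384 in TP. The level of Lyz2 in cells without Cd207 was thus 395 CPM in Con and 3897 CPM in TP. Ifi27l2a, an interferon-inducible gene, had 0 and 30 in Con and 1 and 267 in TP. Crip1, a small LIM protein, had log2 ratios of -4.97 and -3.96, and Zeb2, a transcription factor of monocytes and type 2 dendritic cells, of -3.39 and -5.29. S100a4, a calcium-binding protein gene listed among the monocyte markers, had log2 ratios of -0.25 and -0.02, but of -0.85 and -1.88 over all class II cells.

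**Figure D3:**
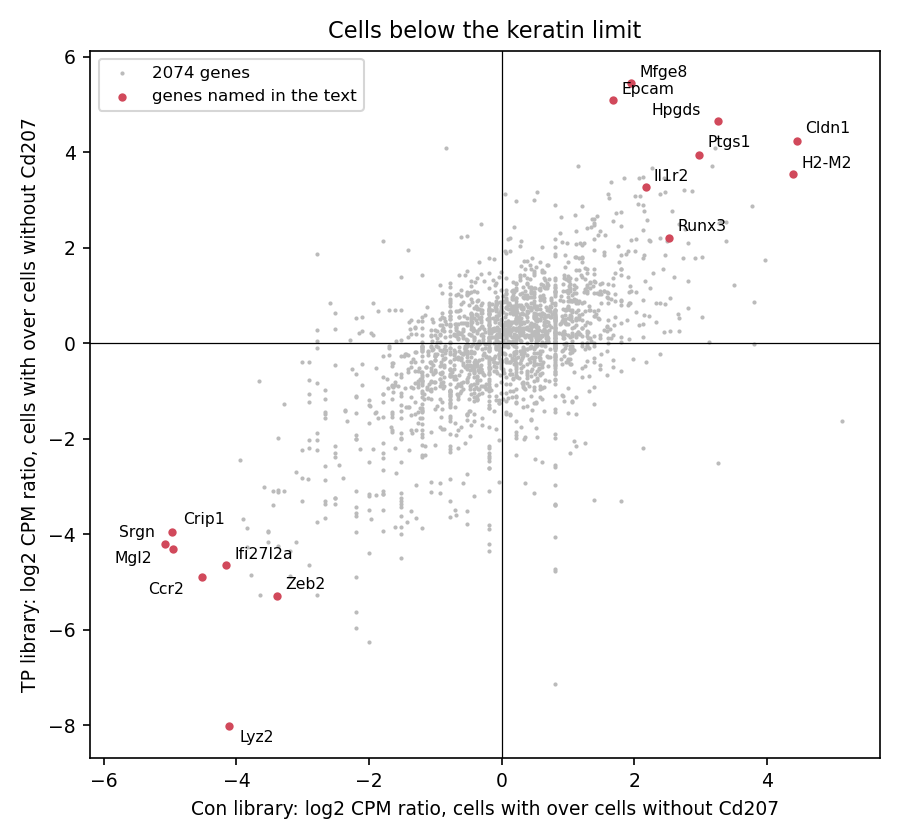
Each point is 1 of 2074 genes, placed by the log2 CPM ratio of cells with Cd207 over cells without it, in the Con library (x) and the TP library (y), for class II cells below the keratin limit and with 1 UMI added before the ratio. Some of the genes named in the text are red. Cldn1, H2-M2, Hpgds and Ptgs1 lie far up to the right and Ccr2, Srgn, Mgl2 and Lyz2 far down to the left, in both libraries.

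The median level of class II in the strata is a description, since class II and Cd207 were both part of the rule. It did not go the same way everywhere. The median over cells with and without Cd207 was 108 and 140 class II transcripts per 10000 in Con, and 113 and 187 in TP. Below the keratin limit it was 152 and 220 in Con but 422 and 214 in TP. Langerin-bearing TP cells below the limit, 13 in number, thus had the highest median.

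The defining receptors of type 1 and mature dendritic cells were seldom seen. Among the class II cells thinned to 1000 UMIs, the type 1 receptors Xcr1 and Clec9a were seen in 1.06% and 2.50% of Con and 0.966% and 2.30% of TP cells. Xcr1 was detected in 1 Con and 4 TP cells in all. Ccr7, the receptor that leads mature dendritic cells to lymph nodes, had 0 UMIs in Con cells and 19 UMIs in 7 TP cells. That is 1.70-fold higher against a floor of 3 UMIs, a value above the exact lower limit. Of those 7 cells 3 also carried the actin-bundling gene Fscn1. None of the 7 carried Cd207. At least 2 of the 7 type 1 markers were detected in 8 of 61 Con and 35 of 119 TP cells, and at least 2 of the 10 mature markers in 7 and 28. These counts are not thinned, and the TP cells were deeper. In a single thinned draw, at least 2 type 1 markers were seen in 4 of 55 Con (7.27%) and 8 of 116 TP cells (6.90%). At least 2 mature markers were seen in 1 of 55 (1.82%) and 8 of 116 (6.90%).

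Thinning put the 2 libraries on one depth for the other markers too. The thinned share with Ccr2 was 17.9% in Con (9.08 to 30.9) and 20.5% in TP (13.7 to 29.2), and that with Mgl2 17.1% (7.77 to 28.8) and 21.4% (14.5 to 30.1). Ccr2 was seen in 4.83% and 1.21% of thinned macrophages and in 0.014% and 0.0113% of thinned keratinocytes, while Mgl2 was seen in 22.0% and 29.0% of macrophages and so does not set the class II cells apart from them. The thinned share with Cd209a was 6.46% (2.02 to 17.6) and 11.7% (6.76 to 19.4). All 3 pairs of intervals overlapped.

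The share with Epcam was 22.6% in Con (11.8 to 35.0) and 15.0% in TP (8.78 to 22.4), near the 14.2% and 15.7% of keratinocytes, and it is therefore no sign of Langerhans cells by itself. H2-M2 was seen in 19.0% and 15.4% of class II cells, in no thinned macrophage, and in 0.132% and 0.153% of keratinocytes. The shares with Mfge8 were 18.7% (9.08 to 30.9) and 12.2% (6.76 to 19.4), and those with Il1r2 were 31.4% (19.1 to 44.8) and 22.2% (15.2 to 31.1). Hpgds was seen in 28.0% and 16.2% of class II cells but also in 22.6% and 18.3% of macrophages.

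Some genes of monocytes and macrophages, though not Ccr2, gave wider gaps between the libraries. Lyz2 was seen in 12.8% of thinned Con cells (5.27 to 24.5) and 38.3% of TP cells (29.1 to 47.4). Fn1, the fibronectin gene listed among monocyte markers, was seen in 3.84% (0.443 to 12.5) and 20.7% (13.7 to 29.2), against 1.87% and 1.19% of macrophages. The mannose receptor gene Mrc1 was seen in 9.22% (3.02 to 19.95) and 25.5% (18.2 to 34.8), against 87.1% and 91.0% of macrophages. For Lyz2 and Fn1 the intervals of the libraries did not overlap, while those for Mrc1 met between 18.2 and 19.95. Il1b was seen in no Con cell, which allows up to 6.49%, and in 10.9% of TP cells (6.10 to 18.4), so its intervals also met. In macrophages it was seen in 2.12% and 1.91%.

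**Figure D4:**
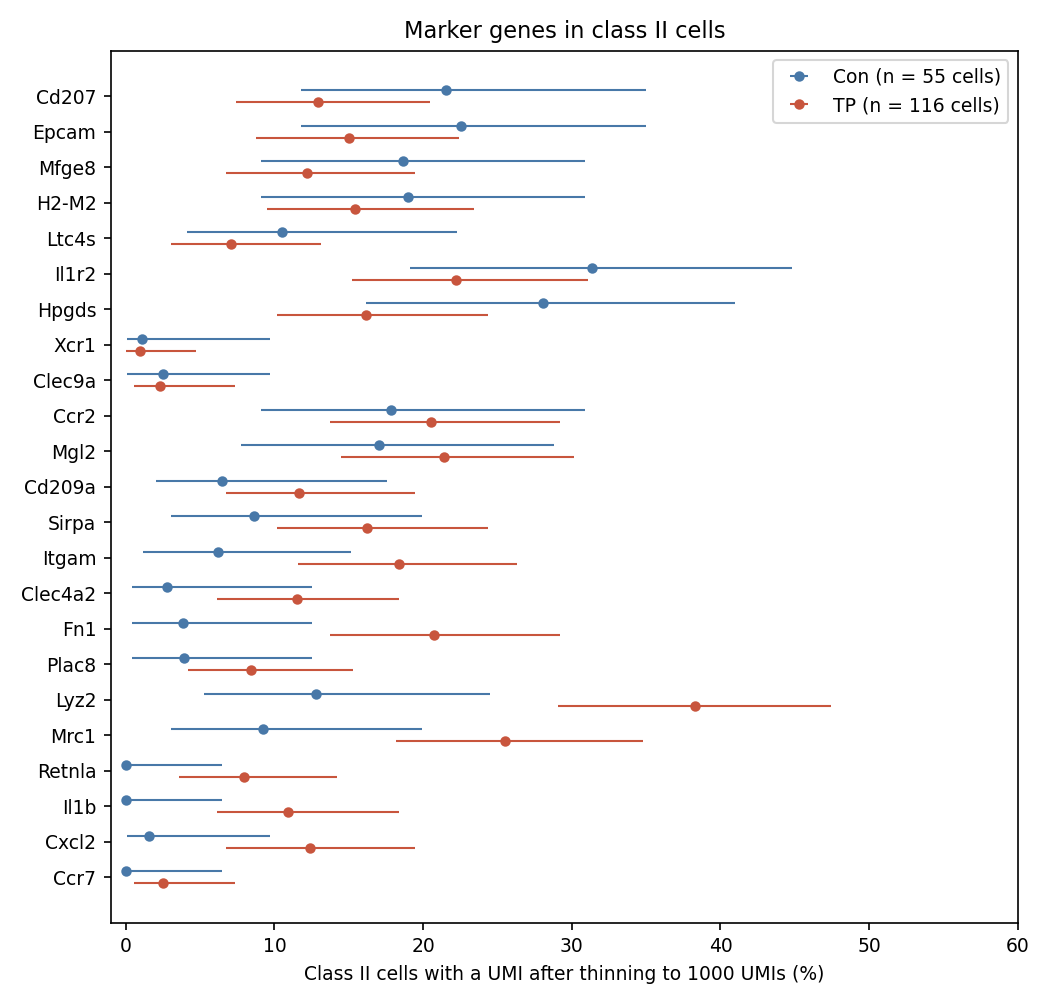
Points give, for each marker gene, the percentage of class II cells of the Con and TP libraries in which it is seen after thinning to 1000 UMIs (x), with exact 95% binomial intervals, over 55 Con and 116 TP cells. The intervals of the 2 libraries overlap for Cd207, Epcam, Ccr2 and Mgl2 and stand apart for Lyz2 and Fn1.

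To compare expression between TP-treated and control skin, UMIs were summed over all class II cells of a library and scaled to CPM. Of 4760 genes with at least 50 UMIs over both libraries, 164 had a ratio of at least 2-fold in favour of TP (3.45%) and 142 a ratio at least as large in favour of Con (2.98%), with a median log2 ratio of -0.09. The TP cells held most of the UMIs, so a gene low in Con could reach 50 UMIs through TP alone. Counts over the gene lists below cover only the members that reached it, and are given as a description beside those shares of all genes. In such sums, more cells of one kind and more transcripts per cell of that kind cannot be told apart. Higher genes were thus 53.6% of those past the fold. Scaling by TMM, which takes the bulk of genes as equal, put the median at 0.10 and the share of higher genes at 77.4%. Below the keratin limit 2201 genes had 50 UMIs, of which 166 were higher (7.54%) and 90 lower (4.09%), with a median of 0.01, and 75 of the higher and 20 of the lower genes were among those of all class II cells.

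The genes with the largest ratios were led by products of myeloid cells. Retnla, the secreted resistin-like molecule of alternatively activated macrophages (GRCm38.p6 chr16:48842609-48844461), had 0 UMIs in Con and 757 in TP, or 729 CPM, at least 67.8-fold higher against a floor of 3 UMIs (exact 95% lower limit 55.0). It came from 10 TP cells with 2 to 336 UMIs and a median of 41.5. A single cell held 44.4% of its UMIs and 5 cells 92.3%. All 10 cells carried Fn1 and Lyz2, 7 carried Mrc1, 6 Ccr2, 4 Mgl2 and none Cd207, and 1 had a C1q transcript. In macrophages Retnla stood at 3825 CPM in Con and 1389 CPM in TP.

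Il1b, which encodes the inflammatory cytokine interleukin 1 beta (chr2:129364569-129371164), had 0 and 201 UMIs, at least 18.0-fold higher in TP against that floor (exact lower limit 14.5). It was found in 21 TP cells with 1 to 50 UMIs and a median of 2. A single cell held 24.9% of its UMIs and 5 cells 75.1%. Of these 21 cells, 19 carried Lyz2, 14 Mrc1, 13 Ccr2 and 2 Cd207. In the TP library macrophages held less of it, 31.5 CPM against 193 CPM in class II cells, while in Con they held 34.2 CPM against 0 in class II cells, which allows up to 13.2 CPM.

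Lyz1, the second lysozyme gene (chr10:117287795-117292868), had 0 and 141 UMIs, at least 12.6-fold higher (exact lower limit 10.1), in 12 TP cells that all carried its neighbour Lyz2. A single cell held 49.6% of its UMIs and 5 cells 83.0%. In macrophages the order was the opposite, with 351 CPM in Con and 8.39 CPM in TP. The pair are near-identical copies, so reads may be split between them. Cxcl2, a neutrophil-attracting chemokine (chr5:90903899-90905938), had 3 UMIs in 1 Con cell and 414 UMIs in 22 TP cells, a ratio of 37.1 (12.6 to 180). Macrophages showed the same order, with 25.7 CPM in Con and 307 CPM in TP. Its ratio below the keratin limit was 21.7 (7.35 to 106).

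Of the remaining genes of the 10 with the largest ratios, Lilr4b, a receptor of myeloid cells, was the most widely spread. It had 0 and 92 UMIs in 29 TP cells, 8.24-fold higher against a floor of 3 UMIs (exact lower limit 6.57). Ccl24, an eotaxin, and Mmp12, the macrophage elastase, had 0 and 55 UMIs each, in 7 TP cells each. That is 4.92-fold higher against that floor (exact lower limit 3.87), and a single cell held 76.4% and 61.8% of the UMIs. Lor, a protein of the cornified envelope of keratinocytes, had 1 and 206 UMIs, but 62.1% came from 1 cell and only 11 UMIs from cells below the keratin limit. Ccl17 and Ccl22 completed the list and are given with the chemokines. Ctsl, a lysosomal protease that trims the invariant chain in some cells, entered the list when only cells below the limit were used. It had 0 and 65 UMIs there, 5.94-fold higher against that floor (exact lower limit 4.69). In all class II cells its ratio was 2.66 (1.34 to 5.998).

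Chemokine genes were the list with most members past the fold. Of 18 listed, 10 had 50 UMIs, of which 9 passed the fold towards TP (3.45% of all genes) and none towards Con (2.98%). The median log2 ratio was 3.02 (-0.09 over all genes). All 9 reached the 50 UMIs through TP, having 0 to 11 UMIs in Con, so the count and the median describe these members and are no support for the list. Of the 8 members below the minimum, Ccl5 and Ccl8 had 7 and 30 and 5 and 20 UMIs, ratios of 1.15 (0.495 to 3.10) and 1.07 (0.391 to 3.66), and the other 6 had 0 UMIs in Con and 5 to 49 in TP. The cells below the keratin limit gave 9 of 10 (7.54% of all genes) with a median log2 ratio of 2.98.

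Ccl6 and Ccl9, CC chemokines of mouse myeloid cells, had 8 and 358 and 8 and 172 UMIs, ratios of 12.0 (6.03 to 28.1) and 5.77 (2.87 to 13.6). Ccl6 was found in 7 Con and 37 TP cells and Ccl9 in 7 and 40. Macrophages held more Ccl6 than the class II cells in both libraries, 958 CPM in Con and 1307 CPM in TP. Ccl3 and Ccl4, the macrophage inflammatory proteins 1 alpha and 1 beta, had 4 and 60 UMIs and 11 and 273 UMIs, ratios of 4.03 (1.49 to 15.3) and 6.67 (3.67 to 13.5). Ccl3 was found in 1 Con and 15 TP cells and Ccl4 in 5 and 28.

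Ccl17 and Ccl22, the ligands of Ccr4 and products of dendritic cells, were listed at 0 CPM in macrophages of both libraries. Ccl17 (chr8:94809380-94812038) had 1 and 109 UMIs, a ratio of 29.3 (5.15 to 1167), and 72.5% of its TP UMIs came from 1 of 6 cells. Ccl22 (chr8:94745684-94751388) had 0 and 86 UMIs, 7.70-fold higher against a floor of 3 UMIs (exact lower limit 6.13), and 91.9% came from 1 of 6 cells. The level of Ccl22 thus rests on a single TP cell. Of the 6 cells with Ccl22, 3 carried Ccr7, 2 carried Cd207 and none Mrc1.

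Cxcl10, an interferon-inducible ligand of Cxcr3, had 4 and 71 UMIs, a ratio of 4.77 (1.78 to 18.0), in 1 Con and 19 TP cells. Cxcl16, a transmembrane chemokine, had 14 and 79 UMIs and a ratio of 1.52 (0.852 to 2.90). It was the tested chemokine that did not pass the fold. Ccl2, the ligand of Ccr2, lay below the 50 UMIs needed with 0 and 49 UMIs, 4.39-fold higher against a floor of 3 UMIs.

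Several chemokines and Il1b lay almost wholly in cells without Cd207 among the TP cells below the keratin limit, of which 13 had Cd207 and 81 had none. Cells with and without Cd207 held 0 and 333 UMIs of Ccl6, 0 and 207 of Ccl4, 0 and 158 of Ccl9, 2 and 236 of Cxcl2 and 0 and 145 of Il1b. For Cxcl2 this did not hold over all TP class II cells, where 5 of 32 cells with Cd207 and 17 of 87 without it carried the gene. Below the keratin limit other members of the lists went the opposite way in TP. Tnf had 21 and 20 UMIs, or 317 and 56.3 CPM, a ratio of 5.63 (2.90 to 10.9) in favour of cells with Cd207. Cxcl16 had 22 and 27 UMIs, or 332 and 76.0 CPM, a ratio of 4.37 (2.37 to 7.96), and Il18, an interleukin of the interleukin 1 family, 10 and 7 UMIs, a ratio of 7.66 (2.63 to 23.7).

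Chemokine receptors had 3 of 12 members with 50 UMIs, and 2 were at least 2-fold higher in TP (3.45% of all genes), among them Ccrl2. This nonsignalling receptor, which holds chemerin, had 4 and 72 UMIs, a ratio of 4.83 (1.81 to 18.2). Ccr2, in contrast, had 41 UMIs in 17 Con cells and 175 in 50 TP cells, which is nearly the same level, with a ratio of 1.15 (0.812 to 1.65). The CXCL12 receptors were sparse. Cxcr4 had 2 UMIs in 2 Con cells and 22 in 14 TP cells, a ratio of 2.95 (0.726 to 25.9) whose interval includes 1. Ackr3, the atypical CXCL12 receptor, had 12 and 11 UMIs, a ratio of 0.246 (0.0984 to 0.609), but keratinocytes held 58.4 and 26.8 CPM of it and only 1 UMI of each library came from class II cells below the keratin limit.

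Among 16 listed cytokines 6 had 50 UMIs, and Il1b and Tnf were at least 2-fold higher in TP (3.45% of all genes). Tnf, tumour necrosis factor, had 7 and 80 UMIs, a ratio of 3.07 (1.42 to 7.88), in 5 Con and 31 TP cells, but lost the fold in cells without Cd207, at a log2 ratio of 0.73. Il1r2 was lower in the TP library without passing the fold, with 133 and 360 UMIs and a ratio of 0.727 (0.594 to 0.894). The interleukins 10, 12 and 23 could not be followed, since Il10, Il12a, Il12b and Il23a had 0 UMIs in the class II cells of both libraries. Il6 had 0 and 25 UMIs, 2.24-fold higher against a floor of 3 UMIs, a value above the exact lower limit.

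Pattern recognition and uptake receptors gave 6 of 9 tested members at least 2-fold higher and none lower, of 22 listed, with a median log2 ratio of 1.32 (3.45% and -0.09 over all genes). In cells below the keratin limit it was 5 of 7 (7.54% over all genes). These 6 had 0 to 23 UMIs in Con and 50 to 222 in TP and reached the minimum through TP, and the 13 other members had at most 7 UMIs in Con and 27 in TP. Cd14, the lipopolysaccharide co-receptor, had 2 and 71 UMIs, a ratio of 9.53 (2.54 to 80.3). Fcgr3, an activating IgG receptor, had 0 UMIs in Con and 50 in 23 TP cells, 4.48-fold higher against a floor of 3 UMIs, a value above the exact lower limit. Clec4e, the mycobacterial glycolipid receptor Mincle, had the same counts, but in 11 TP cells.

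Clec4a2, an inhibitory C-type lectin, had 5 and 78 UMIs and a ratio of 4.19 (1.72 to 13.3), and its neighbour Clec4a3 had 7 and 71 and a ratio of 2.72 (1.26 to 7.02). Mrc1 had 23 and 222 UMIs, 82.4 and 214 CPM, a ratio of 2.59 (1.68 to 4.17), against 2850 and 3792 CPM in macrophages. Class II cells thus held far less Mrc1 than the C1q macrophages of the same library. The inhibitory IgG receptor Fcgr2b, at 37 and 173 UMIs, and Fcer1g, the shared signalling chain, at 47 and 297 UMIs, did not pass the fold, with ratios of 1.26 and 1.70.

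In the class II loading pathway, 16 of 23 listed genes were tested. Of these 2 were higher (3.45% of all genes) and none lower (2.98%), with a median log2 ratio of 0.36 (-0.09 over all genes). The 4 genes that chose the cells are a description. Cd74 had 2139 and 9520 UMIs, 7665 and 9163 CPM, a ratio of 1.20 (1.14 to 1.25), and H2-Aa, H2-Ab1 and H2-Eb1 had ratios of 1.11 (1.03 to 1.20), 1.26 (1.14 to 1.38) and 1.01 (0.924 to 1.11). Ciita, the switch of the pathway, had 40 and 150 UMIs and a ratio of 1.01 (0.706 to 1.47).

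H2-DMa and H2-DMb1, the chains of the peptide editor, had ratios of 0.965 and 1.40 (1.06 to 1.87 for H2-DMb1). The genes past the fold were lysosomal proteases, Lgmn with 3 and 74 UMIs, a ratio of 6.63 (2.18 to 32.9), and Ctsl with 9 and 89. Both were also abundant in macrophages, at 608 and 882 CPM for Lgmn. March1, the ubiquitin ligase that takes class II off the surface, had a lower level in TP, with 49 and 110 UMIs and a ratio of 0.603 (0.427 to 0.862), short of the fold. Cd83, which counters that ligase, had 30 and 205 UMIs and a ratio of 1.84 (1.25 to 2.79).

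**Figure D5:**
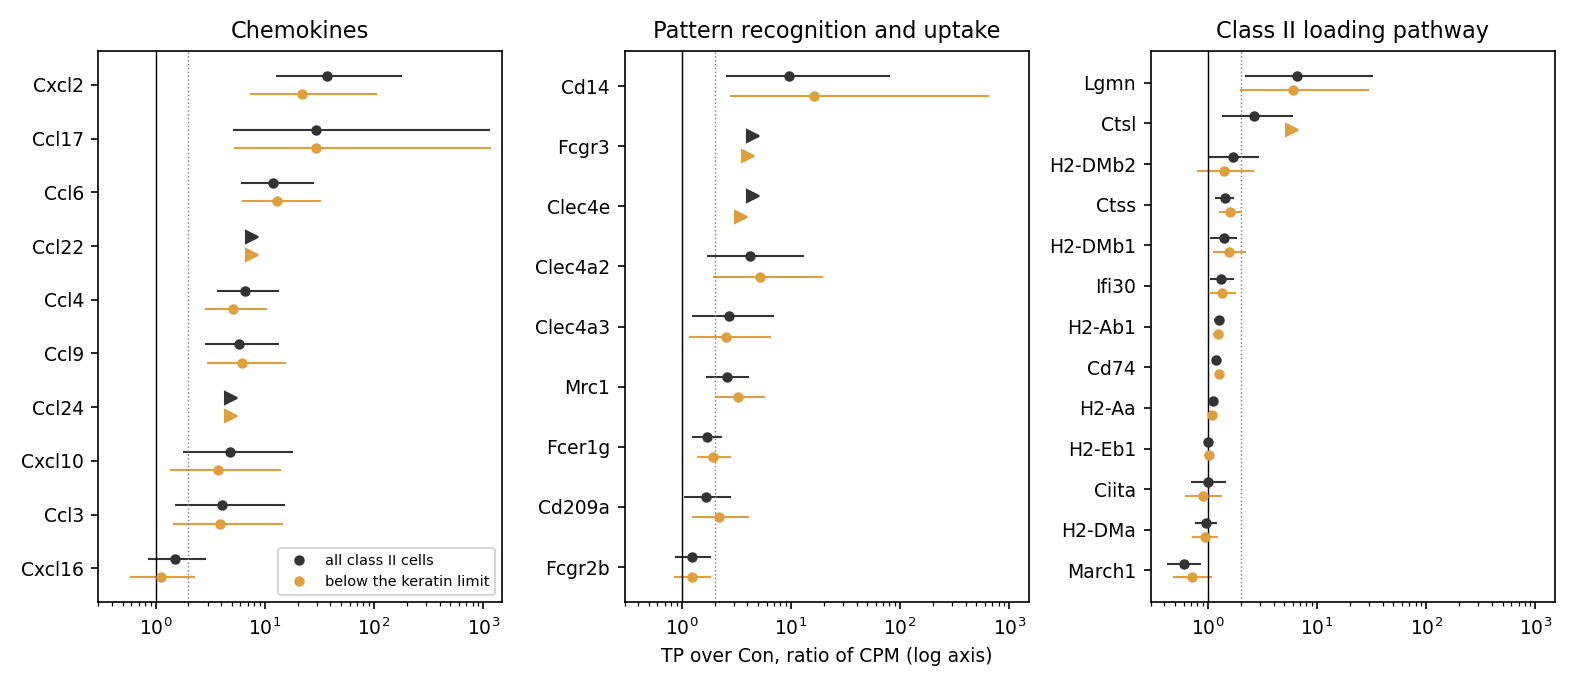
Points give the TP over Con ratio of CPM (x, log axis) for chemokines, pattern recognition and uptake receptors and the class II loading pathway, in all class II cells (black) and in those below the keratin limit (orange), with exact 95% intervals; triangles are lower bounds for genes at 0 in Con, the solid line is 1 and the dotted line 2. Most chemokines lie to the right of the dotted line. Those past the fold reached the minimum of UMIs through TP, so their place is a description. Cd74, which was used to choose the cells, lies at 1.20, and Ciita lies at 1.01.

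Of 11 listed costimulation genes 5 were tested, and 2 were at least 2-fold higher (3.45% of all genes). None was 2-fold higher in cells below the keratin limit (7.54% of all genes). Cd86, the main costimulatory ligand, had 60 and 244 UMIs and a ratio of 1.09 (0.820 to 1.47). Cd274, which encodes PD-L1, had 6 and 53 UMIs and a ratio of 2.37 (1.02 to 6.75), and Tnfsf9, the ligand of 4-1BB, 11 and 91 UMIs and a ratio of 2.22 (1.19 to 4.61). For Tnfsf9, 87.9% of the TP UMIs came from 5 of 10 cells, and as a mean over cells its log2 ratio was 0.01. Havcr2, the checkpoint receptor TIM-3, had 25 and 54 UMIs, a ratio of 0.580.

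The marker lists of dendritic and myeloid subsets were read on the same sums, where 3.45% of all genes were at least 2-fold higher and 2.98% lower. Of 8 tested type 2 dendritic cell markers, Itgam and Clec4a2 were at least 2-fold higher, with a median log2 ratio of 0.64 over the list. Itgam, the integrin chain CD11b, had 13 and 143 UMIs and a ratio of 2.95 (1.67 to 5.68). Mgl2 had 58 and 312 UMIs and a ratio of 1.44 (1.09 to 1.95), and Cd209a 20 and 125 UMIs and a ratio of 1.68 (1.04 to 2.84), which was 2.19 and past the fold below the keratin limit.

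Of 4 tested monocyte markers only Fn1 passed, with 7 UMIs in Con and 280 in TP, a ratio of 10.7 (5.15 to 27.0). The 34 TP cells with Fn1 all carried Lyz2, and 26 carried Mrc1, 24 Ccr2, 19 Mgl2 and 1 Cd207. Of 4 tested macrophage markers only Mrc1 passed. Of 4 tested markers of mature dendritic cells Ccl17 and Ccl22 passed, and of 2 type 1 and 2 plasmacytoid dendritic cell markers none did.

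Langerhans cell genes did not differ by 2-fold over all class II cells, where none of 5 passed and the median log2 ratio was -0.13. Keratin-rich cells held 58.6% and 59.4% of the UMIs in these sums, and Epcam and Cdh1 of this list are also genes of keratinocytes. Below the keratin limit 1 of 5 was lower (4.09% of all genes) and the median was -0.56. Cd207 had 92 and 276 UMIs, a ratio of 0.806 (0.634 to 1.03), and Epcam 77 and 285, a ratio of 0.994. Ltc4s, which is not on that list, had 32 and 104, a ratio of 0.873 (0.582 to 1.34). It stood at 115 and 100 CPM in class II cells and at 94.1 and 159 CPM in macrophages. That gene was Cd207 itself, with 69 and 124 UMIs below the keratin limit and a ratio of 0.492 (0.364 to 0.671). Cd207 was one of the genes of the rule, so its values are a description.

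Lysosomal genes had 3 of 10 members at least 2-fold higher (3.45% of all genes) and 5 of 10 below the keratin limit (7.54%), with a median log2 ratio of 0.77 over all class II cells. Lyz2 had 32 UMIs in 11 Con cells and 1425 UMIs in 66 TP cells, which is 115 and 1372 CPM and a ratio of 12.0 (8.43 to 17.6). No Con cell held more than 7 of its UMIs, while the highest TP cell held 308. Ctsb, cathepsin B, had 44 and 336 UMIs and a ratio of 2.05 (1.49 to 2.88). Cst3, the cystatin that is abundant in dendritic cells, had 1244 and 4191 UMIs and a ratio of 0.905.

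Of 14 tested transcription factors 2 were at least 2-fold higher (3.45% of all genes) and none lower (2.98%). Zeb2 had 62 and 660 UMIs and a ratio of 2.86 (2.20 to 3.77), and Cebpb, a factor of monocytes and of wounded keratinocytes, 31 and 239 UMIs and a ratio of 2.07 (1.42 to 3.12), which was 1.63 (0.952 to 2.96) below the keratin limit. Irf8, needed by type 1 dendritic cells, and Spi1, the myeloid factor PU.1, had ratios of 0.750 (0.464 to 1.25) and 1.14. Of 9 tested growth factor and cytokine receptors only Il13ra1 passed (3.45% of all genes), with 15 and 138 UMIs and a ratio of 2.47 (1.45 to 4.53). Csf1r and Flt3, the receptors that sustain Langerhans and dendritic cells, had ratios of 1.17 and 1.34.

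Response lists are given beside the share of all genes past the fold. All 17 immediate-early and heat shock genes were tested, and Ier3 and Dnajb1 were at least 2-fold higher (3.45% of all genes), with ratios of 3.74 (2.03 to 7.64) and 2.80 (1.88 to 4.32). Dnajb1 lost the fold below the keratin limit, at a log2 ratio of 0.50, in cells without Cd207, at 0.42, and as a mean over cells, at 0.85. Fos, an early gene of the AP-1 family, had 467 and 2544 UMIs and a ratio of 1.46. Of 5 tested interferon response genes Cxcl10 and Ifi27l2a passed (3.45% of all genes), the latter at 31 and 288 UMIs and a ratio of 2.50 (1.72 to 3.74).

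Steroid response genes, listed because the treatment was an androgen, had 1 of 7 past the fold (3.45% of all genes). Their median log2 ratio was 0.00 (-0.09 over all genes). The gene past the fold was the zinc finger factor Zbtb16, with 7 and 82 UMIs and a ratio of 3.15 (1.46 to 8.07), but 0 and 10 of these UMIs came from cells below the keratin limit and its direction reversed in cells without Cd207, where the log2 ratio was -0.66. Of 9 tested adhesion and migration genes only Itgam passed (3.45% of all genes). None of 4 cell cycle genes passed, and Mki67, the proliferation antigen, had 71 and 162 UMIs and a ratio of 0.613.

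The 10 genes with the smallest ratios were led by Dct and Cdh6 and held 3 keratins. Dct, a melanin enzyme of melanocytes, had 50 UMIs in Con and 10 in TP, a ratio of 0.0537 (0.0243 to 0.107). A single cell held 62.0% of its Con UMIs. Krt25 and Krt71, keratins of the inner root sheath, had 147 and 75 UMIs and 91 and 53 UMIs, ratios of 0.137 (0.102 to 0.182) and 0.156. The list went on with Cdh6 at 0.0740, Sostdc1 at 0.147, Csgalnact1 at 0.169, Krt35 at 0.170, Tchh at 0.196, Slc30a1 at 0.221 and the skin chemokine Ccl27a at 0.222. As a mean over cells the log2 ratio of Ccl27a was -0.82, and 1 UMI of it in each library came from cells below the keratin limit. For Sostdc1, 78.8% of the Con UMIs came from 1 cell, and in cells without Cd207 its log2 ratio was -0.47. The barcodes outside the class II cells showed the same direction, with 1490 and 511 CPM for Krt25, 1243 and 352 CPM for Krt71, 205 and 117 CPM for Dct and 1015 and 174 CPM for Cdh6. The part of transcripts from those cells in these ratios was not tested.

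Markers of other cell types in the class II cells are given as they stood. Summed keratinocyte markers were at 16864 CPM in Con and 20610 in TP, with 3 of 11 tested genes lower (2.98% of all genes). They were at 3249 and 2924 CPM below the keratin limit. Fibroblast markers were at 366 and 184 CPM with none of 3 past the fold, and the 1 melanocyte marker tested, Dct, was lower. B lymphocyte markers were at 96.8 and 67.4 CPM, nearly all of it Ighm with 27 and 65 UMIs, and Cd79a and Ms4a1 were at 0. T lymphocyte markers were at 35.8 and 113 CPM, led by Trbc2 with 8 and 90 UMIs and a ratio of 3.02 (1.47 to 7.21), of which 0 and 12 UMIs lay in cells below the keratin limit. Neutrophil markers were at 10.8 and 21.2 CPM and mast cell markers at 3.58 and 3.85 CPM, and no neutrophil, mast, dermal papilla or endothelial marker had 50 UMIs.

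Genes of signals that other skin cells can send to these cells were read over all kept barcodes. In such sums the mix of cells and the level per cell cannot be told apart. Keratinocytes without immune UMIs were 42.3% of kept barcodes in Con and 66.7% in TP. Il34, the keratinocyte ligand that maintains Langerhans cells through Csf1r, stood at 41.6 CPM in Con and 71.8 in TP, and Csf1 at 6.396 and 14.9. Tslp, an epithelial activator of dendritic cells, was at 1.69 and 6.32 CPM, and Flt3l, which sustains conventional dendritic cells, at 3.82 and 3.79. The Ccr6 ligand Ccl20 was at 1.04 and 5.80 CPM, the Ccr7 ligand Ccl21a at 5.30 and 35.7, and Cxcl12 at 9.53 and 19.2. Inside the class II cells, 3 of 12 listed ligands were tested. Cxcl14, a chemokine of epithelium, was at least 2-fold lower in TP (2.98% of all genes). It lost that call with TMM (log2 ratio -0.97) and as a mean over cells (-0.83).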

How the data were processed

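Dorsal skin of C3H/HeN mice was profiled with 10x Chromium GEM-X 3′ v4 chemistry. The authors deposited UMI counts per gene and barcode, made with Cell Ranger 8.0.1 on mm10 according to the submitters' processing notes, with 1 library each for Con and TP; a library of TP with CXCL12 antibody was not analysed here. The deposited counts were used as they stand. Barcodes were kept at 200 to 8000 genes and at most 10% mitochondrial UMIs, and class II cells were chosen by the rule given above. The members and gene lists were chosen with earlier results of these data known.

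UMIs were summed over the class II cells of a library and scaled to CPM. Genes with at least 50 UMIs over both libraries were compared, with a pseudocount of 1 UMI in log2 ratios, and a gene was counted from a log2 ratio of 1 (2-fold). A gene at 0 in Con got a lower bound against 3 UMIs summed over the class II cells, which lies above the exact 95% lower limit of the ratio. Shares have Clopper-Pearson and ratios exact conditional 95% intervals. Thinning to 1000 UMIs was computed as the mean over all draws, chosen after single draws were seen to differ; for its interval the mean was rounded to whole cells. Macrophages had at least 10 of 10000 UMIs of C1q genes, at least 2 of the 3 C1q genes and a UMI of Ptprc, Ctss or Tyrobp. T cells had at least 2 T marker genes and a Ptprc UMI. Keratinocytes had keratin genes at 20 of 10000 or more and, by choice, no UMI of the immune and class II genes. Doublets were not removed; as a check, 25% artificial doublets were added and the 7.5% of barcodes nearest to them (30 components, 1% neighbours) were counted or left out. Named genes were the 10 largest and 10 smallest ratios, the 10 highest and 6 lowest by Cd207, the markers, Cxcr4, Ackr3 and members of the fixed lists, without ribosomal, mitochondrial and unnamed genes or those of the rule for the rankings. Of 298 listed genes 294 were found. Promoters and gene positions came from RefSeq on GRCm38.p6. Other settings were another scaling (TMM), filters, pseudocount, denominators and cell subsets. Steps were tested on simulated data. Python 3.11.15, NumPy 2.4.6, SciPy 1.17.1, pandas 2.3.3, scikit-learn 1.9.0, matplotlib 3.10.9, R 4.3.3 and edgeR 4.0.16 (TMM factors only) were used. Values of 2 list members are not reported here.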

Additional observations from a re-analysis of the deposited data

Results flagged for a closer look

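Barcodes over the mitochondrial limit lie outside the comparisons above. In the TP library, 3 of 5844 such barcodes (0.0513%, 0.0106 to 0.150) met the rest of the rule for class II cells, and in the Con library 0 of 3465 did, which allows a share of up to 0.106%, above the TP share. They were picked out because they hold a class II signal in barcodes that the comparisons of the report leave out; 2 of them enter where the mitochondrial limit is set at 20%, one of the other settings tried below. The difference from Con was not detectable at this depth.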

How the results depend on the processing

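No paired analysis was possible because each group has only replicate 1. The ratio of shares of class II cells stayed between 3.68 and 5.19 under other limits, without keratin-rich, lymphocyte-marked or doublet-like cells, and after thinning before the rule, and was 1.86 with Ptprc-bearing barcodes as denominator, where that of macrophages was 7.03. The share with Cd207 was 41.0% in Con and 26.9% in TP without thinning, and 12.1% and 6.90% after thinning for at least 2 UMIs. Of 4760 genes tested, 164 were higher in TP. That became 254 of 4760 with TMM, 341 of 7946 at 20 UMIs or more and 627 of 15382 with no minimum. It was 271 of 4760 as a mean over cells, 286 of 2714 without lymphocyte-marked cells and 31 of 504 after thinning. The 142 lower genes of 4760 became 74 of 4760 with TMM and 79 of 4760 with the other pseudocount. They were 515 of 7946 at 20 UMIs or more and 3023 of 15382 with no minimum. They were 90 of 2201 without keratin-rich cells and 13 of 504 after thinning. These counts rest on unlike numbers of tested genes, so a smaller count need not be a smaller share. Higher genes were 61.8% of those past the fold with the other pseudocount, 39.8% at 20 UMIs, 17.2% with no minimum, 67.2% without Cd207 cells, 67.5% without lymphocyte-marked cells, 64.8% without keratin-rich cells and 70.5% after thinning. Cd207-bearing cells had 224 genes higher and 323 lower of 4760 over all class II cells, and 195 lower of 2201 without keratin-rich cells. Without lymphocyte-marked cells these were 86 and 158 of 2714. Zbtb16 reversed in cells without Cd207, to a log2 ratio of -0.66. The causes of these shifts were not tested, other than that a lower minimum tests more genes and thinning or leaving out cells leaves fewer UMIs. Chemokines had 9 of 10 past the fold with TMM, as a mean over cells and below the keratin limit. They had 9 of 9 in cells without Cd207 and 8 of 9 without doublet-like cells. Over all genes, the counts higher in TP were 254 of 4760 with TMM and 271 of 4760 as a mean over cells. They were 166 of 2201 below the keratin limit, 211 of 2232 without Cd207 and 217 of 3650 without doublet-like cells. The 9 chemokines reached the minimum of UMIs through TP, so their counts are no support for the list. With 61 Con cells and 1 library per group, differences between mice, digestions and libraries could not be measured.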
